A study of Mus musculus with 2 samples.

Results

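The smooth muscle and pericyte genes described here were 10 genes chosen by symbol: Pdgfrb, Notch3, Rgs5, Kcnj8, Abcc9, Myh11, Acta2, Tagln, Cnn1 and Lmod1. All 10 were found among 21851 protein-coding genes of the mouse annotation (GENCODE release 21, mm10, which is GRCm38). The study mapped DNase I cleavage, which marks chromatin that is open to the enzyme, in the gastrocnemius, the large superficial calf muscle. Nuclei came from whole muscle of male B6CASTF1/J mice, the first-generation cross of C57BL/6J with CAST/EiJ, at 36 days of age, with no treatment named. There was 1 group of 2 libraries, biological replicates 1 and 2. The labels number the animals apart but give both the same donor record. Each gene was described by the peaks, the per-base false discovery rates (q-values) and the footprints in its body and 10 kb either side, called its window here.

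Small vessels are wrapped by mural cells: contractile smooth muscle cells around arteries and arterioles, and pericytes around capillaries. Endothelial cells release platelet-derived growth factor B and display Notch ligands, which act on PDGFRB and NOTCH3 on the mural cell. The contractile genes are known targets of serum response factor (SRF), which binds CArG boxes together with myocardin. In whole muscle these cells are a minority among muscle fibres, endothelial cells and fibroblasts. A lower signal from fewer mural cells and one from less open chromatin in each mural cell cannot be told apart here.

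Each library has a shorter peak list, of 50760 peaks in replicate 1 and 49230 in replicate 2, and a longer one, of 83409 and 83736. Shorter lists were used unless stated. A peak value is the height of the authors' deposited signal. Its scaling and the read depth were not given in the sources used here, so values were ranked only within a library, as a percentile among that library's peaks. Bases listed at q of 0.05 or lower covered 22.6 Mb in replicate 1 and 29.9 Mb in replicate 2. Of the markers of other cell types, 7 of 8 skeletal muscle fibre genes had a promoter peak in both libraries, with values from 2.86 to 6.51 in replicate 1 and from 1.72 to 3.39 in replicate 2, and Myh4 had none. The count was 3 of 6 for endothelium (Kdr, Tek and Tie1, from 1.28 to 2.28 and from 0.861 to 1.27) and 4 of 4 for fibroblasts. It was 0 of 5 for macrophages and 0 of 4 for heart. In the longer lists the counts were 8 of 8 for skeletal muscle fibre, with Myh4 added, and 5 of 6 for endothelium. There they were 4 of 4 for fibroblasts, 1 of 5 for macrophages and 1 of 4 for heart.

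Open chromatin at the start of these genes was found in both libraries for 4 of the 10: Pdgfrb, Kcnj8, Abcc9 and Myh11. A promoter peak was one within 500 bp of an annotated coding start site, and 54.2% of all protein-coding genes had one in both libraries. Notch3, Rgs5 and Lmod1 had a promoter peak in replicate 1 alone, which held for 1.59% of all genes, and no gene of the 10 had one in replicate 2 alone, against 2.88%. Acta2, Tagln and Cnn1 had none in either library, against 41.3% of all genes. In the longer lists the count in both libraries was 6 of 10, with Notch3 and Lmod1 added, against 59.0% of all genes. There Rgs5 stayed in replicate 1 alone (1.69% of all genes), Acta2 and Cnn1 were in replicate 2 alone (3.45%), and Tagln was in neither (35.8%). With 10 genes, a share of 40% or 60% in both libraries is near the background, whereas 3 of 10 in replicate 1 alone is above it. The promoter peaks that were present were low. The median promoter value of all genes with one was 5.57 in replicate 1 and 3.77 in replicate 2, and every value of the 10 genes was below it in its library. In replicate 2, only 4 of the 10 genes had a promoter peak in the shorter list. The lowest of these values, 1.33 at Kcnj8, was above the endothelial values given above. In the longer list of replicate 2, Notch3 (1.04) and Lmod1 (1.03) lay within that endothelial range. Cnn1 (0.697) and Acta2 (0.670) lay below it. In replicate 1 the shorter-list ranges of the 10 genes and of the endothelial genes overlapped.

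**Figure D1:**
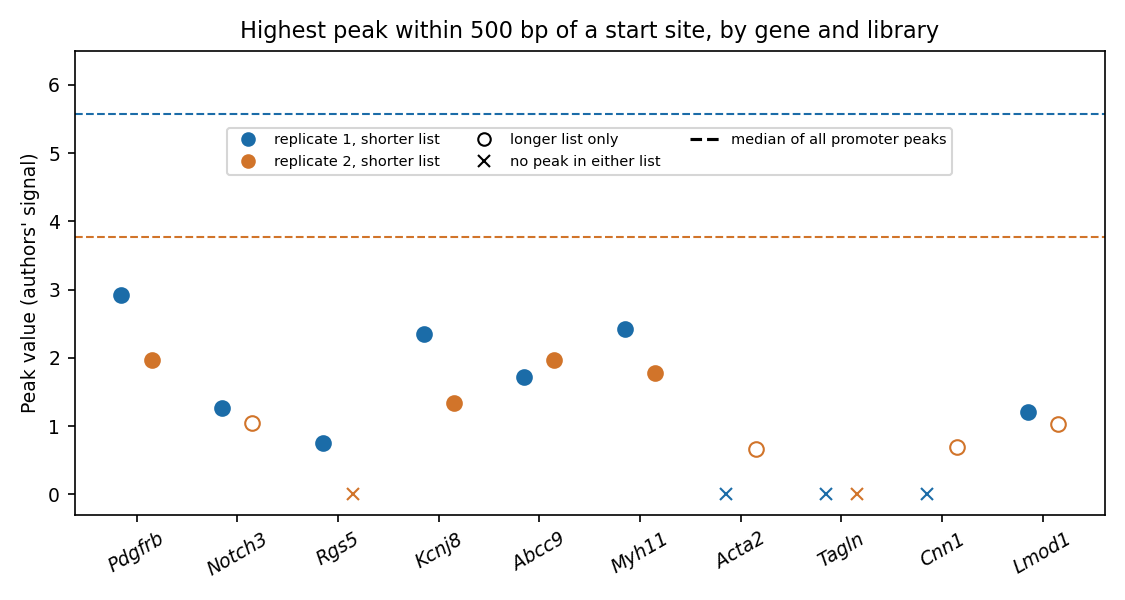
Highest promoter peak value (vertical axis, deposited signal height) for each of the 10 genes (horizontal axis) in replicates 1 and 2; open circles are peaks of the longer list only, crosses at 0 mark no peak in either list, and dashed lines are the medians over all genes with a promoter peak. Pdgfrb has the highest value in replicate 1 (2.92) and in replicate 2 (1.97, with Abcc9 nearly equal at 1.96). All values lie under the medians of 5.57 and 3.77.

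The receptors were read first. Pdgfrb (ENSMUSG00000024620.11, chr18:61045150-61085061, plus strand) encodes the receptor through which endothelial PDGF-B recruits pericytes. Its promoter peak had a value of 2.92 in replicate 1 and 1.97 in replicate 2, at the 71.5th and 66.7th percentile of all peaks but only the 25.5th and 23.1st percentile of promoters. The lowest q within 500 bp of its start was 5.94e-14 and 1.02e-18. Pdgfrb was the member with the tallest promoter peak in both libraries, although Abcc9 was nearly equal in replicate 2, at 1.96. A further peak 350 bp upstream, of 0.789, was called in replicate 2 alone. Both regions away from its promoter were in both libraries and stood higher in rank in replicate 2. The one 5130 bp upstream (chr18:61039921-61040120) had values of 1.68 and 2.27, at the 47.5th and 71.5th percentile. The one in intron 9 (chr18:61068481-61068680) had values of 2.88 and 4.07, at the 71.0th and 86.6th percentile.

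Notch3 (ENSMUSG00000038146.8, chr17:32120820-32166852, minus strand), the Notch receptor of mural cells, had a weak promoter and many other open regions. Its promoter peak had a value of 1.27 in replicate 1, at the 31.4th percentile. In replicate 2 it was only in the longer list, at 1.04, and the lowest q near the start was 6.14e-07 and 0.000310. Its window held 6 regions in both libraries, the most of any of the 10 genes, where the median gene had 1. The region with the highest rank lay in exon 24 (chr17:32143261-32143480), 23482 bp into the gene, with values of 3.85 and 4.53, at the 79.0th and 88.8th percentile. It was therefore above the promoter of its own gene in both libraries. It is shown here on the minus strand of GRCm38 because it is an exon. The capitals mark both protected stretches (footprints) as bounded in replicate 1. In replicate 2, a single footprint of 47 bp (chr17:32143342-32143388) covered both and the bases between them.

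Notch3 exon 24 region: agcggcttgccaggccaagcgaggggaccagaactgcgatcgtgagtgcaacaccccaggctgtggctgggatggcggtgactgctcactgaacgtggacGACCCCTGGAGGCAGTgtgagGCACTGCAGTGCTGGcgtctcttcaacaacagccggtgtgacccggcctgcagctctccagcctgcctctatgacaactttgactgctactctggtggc

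The other Notch3 regions covered exon 33 (chr17:32122461-32122920, values 3.30 and 2.06), intron 2 (chr17:32162141-32162340, 2.45 and 1.83) and a place 6528 bp upstream (chr17:32173281-32173480, 3.13 and 1.87). A downstream region (chr17:32117361-32117526) had values of 1.87 and 1.43. The sixth lay at the start of Gm17276, an overlapping gene, and may belong to it: its values were 2.32 and 1.83. Gm17276 also overlaps the exon 33 region and the downstream one. Of the Notch3 window, 4.10% of bases in replicate 1 and 5.67% in replicate 2 had a listed q, at the 80.9th and 80.4th percentile of all genes, the highest of the 10 in both libraries.

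Rgs5 (ENSMUSG00000026678.10, chr1:169655501-169695813, plus strand) encodes a regulator of G-protein signalling widely used to mark pericytes. It had nearly no signal. A peak of 0.752, at the 5.72nd percentile of replicate 1, lay just upstream of its start (chr1:169655375-169655473). Replicate 2 had no Rgs5 promoter peak in either list. In replicate 2, no base of the 60313 bp window had a listed q, which was also so for 19.1% of all genes, although that library listed more bases in all. In replicate 1, 0.572% of the Rgs5 window had one, and none of the 10 genes had an empty window, against 19.9% of all genes. The peak is shown on the plus strand of GRCm38 as the only open stretch at this start site, with the footprint of replicate 1 in capitals.

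Rgs5 promoter peak: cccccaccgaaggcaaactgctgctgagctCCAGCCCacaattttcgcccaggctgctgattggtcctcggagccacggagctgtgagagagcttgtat

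Kcnj8 (ENSMUSG00000030247.9, chr6:142564837-142571614) and Abcc9 (ENSMUSG00000030249.15, chr6:142587862-142702315), both on the minus strand, are neighbours. They encode the pore (Kir6.1) and the sulphonylurea receptor (SUR2) of the ATP-sensitive potassium channel of vascular mural cells, and SUR2 is also a subunit of the channel in striated muscle. Both promoters were open in both libraries, and their order differed between libraries. Kcnj8 had a promoter value of 2.34 in replicate 1 and 1.33 in replicate 2, at the 63.4th and 50.2nd percentile. Abcc9 had 1.71 and 1.96, at the 48.6th and 66.6th percentile. Kcnj8 was thus the higher in replicate 1 and Abcc9 in replicate 2, so these libraries give no order between the 2 subunits. The lowest q near the start was 1.12e-13 and 3.49e-09 for Kcnj8, and 4.40e-10 and 1.98e-13 for Abcc9.

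Kcnj8 had no other region in its window. Abcc9 had 1, in intron 14 (chr6:142667901-142668460), with values of 1.76 and 1.20. The Abcc9 promoter held 1 footprint found in both libraries. It is shown in capitals with 5 bases either side (chr6:142702324-142702352, minus strand, GRCm38), since it is the only protected stretch shared at this start site. The capitals give its bounds in replicate 1, and in replicate 2 it spanned chr6:142702323-142702343.

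Abcc9 promoter footprint: cgcccCAGGCCACAGCGCAGCGCAgcgga

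Among the contractile genes, Myh11 was the only one with a promoter peak in both libraries. Myh11 (ENSMUSG00000018830.10, chr16:14194535-14291372, minus strand) encodes smooth muscle myosin heavy chain. Its promoter value was 2.42 in replicate 1 and 1.77 in replicate 2, at the 64.6th and 62.8th percentile, with a lowest q of 1.84e-13 and 7.65e-12. This was the smallest change in percentile among the 4 genes with a promoter peak in both libraries. A Myh11 peak of 1.12 in intron 40 was in replicate 2 alone. In the longer lists it was in both libraries, at 0.481 in replicate 1 and 1.12 in replicate 2. The 2 intronic regions in both shorter lists differed between the libraries in opposite directions. Intron 9 (chr16:14237401-14237600) had values of 1.42 and 2.71 and ranked 38.9 percentile points higher in replicate 2. Intron 3 (chr16:14258881-14259203) had values of 3.39 and 1.47, a difference of -21.2 points. The middle range of this difference over all regions in both libraries, between the quartiles, was from -6.04 to 9.49 points.

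Acta2 (ENSMUSG00000035783.9, chr19:34241090-34255590, minus strand) encodes smooth muscle actin, and no peak of the shorter lists lay at its start. The longer list of replicate 2 held a promoter peak of 0.670. The lowest q within 500 bp was 0.0447 over 4 listed bases in replicate 1 and 0.00719 over 365 listed bases in replicate 2. Those lowest points were 225 and 212 bp inside the GENCODE start, but 8 bp inside and 5 bp before the RefSeq start, which lies 217 bp further in. These are single lowest bases: the longer-list peak of replicate 2 (chr19:34255361-34255643) spans both annotated starts. A peak of 1.26 in intron 7 was in replicate 1 alone. The only region in both libraries lay past the 3′ end, inside the neighbouring gene Stambpl1 (chr19:34234021-34234200), with values of 2.47 and 1.81.

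Tagln (ENSMUSG00000032085.5, chr9:45929619-45936058, minus strand), which encodes transgelin (SM22), an actin-binding protein of smooth muscle, was the one gene with no promoter peak in any of the 4 lists. A q of 0.0317 was the lowest near its start in replicate 1, and none was listed there in replicate 2. A peak of 1.55 lay 1028 bp upstream (chr9:45937032-45937140) in replicate 1 alone. Of the Tagln window, 1.01% had a listed q in replicate 1 and 0.144% in replicate 2, at the 36.8th and 21.6th percentile of all genes. Tagln and Rgs5 were thus the 2 genes with no region in both libraries and with a smaller listed share in replicate 2 than in replicate 1.

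Cnn1 (ENSMUSG00000001349.5, chr9:22099216-22109630, plus strand) encodes calponin 1, which binds actin and slows smooth muscle myosin. It had no promoter peak in the shorter lists and one of 0.697 in the longer list of replicate 2, where the lowest q was 0.00113. A region in both libraries, with 6.20 in replicate 1 and 3.73 in replicate 2, lay at the shared start of Elof1 and 6530413G14Rik and is therefore a promoter of other genes.

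Lmod1 (ENSMUSG00000048096.7, chr1:135324807-135368065, plus strand) encodes leiomodin 1, which nucleates actin filaments in smooth muscle. Its promoter peak was 1.21 in replicate 1 and 1.03 in the longer list of replicate 2, with a lowest q of 4.89e-05 and 0.00171. Peaks of 1.80 and 1.44 in intron 1 were in replicate 1 alone. In the longer lists the second of these was in both libraries, at 1.44 in replicate 1 and 1.04 in replicate 2. In the shorter lists, the Lmod1 regions in both libraries all lay past its 3′ end. The first (chr1:135368301-135368520) had values of 3.60 and 3.21, at the 77.4th and 81.2nd percentile. The second (chr1:135369135-135369320) ranked at the 62.5th and 55.9th percentile, and the third, of 2.21 and 2.12, was at the start of Shisa4.

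**Figure D2:**
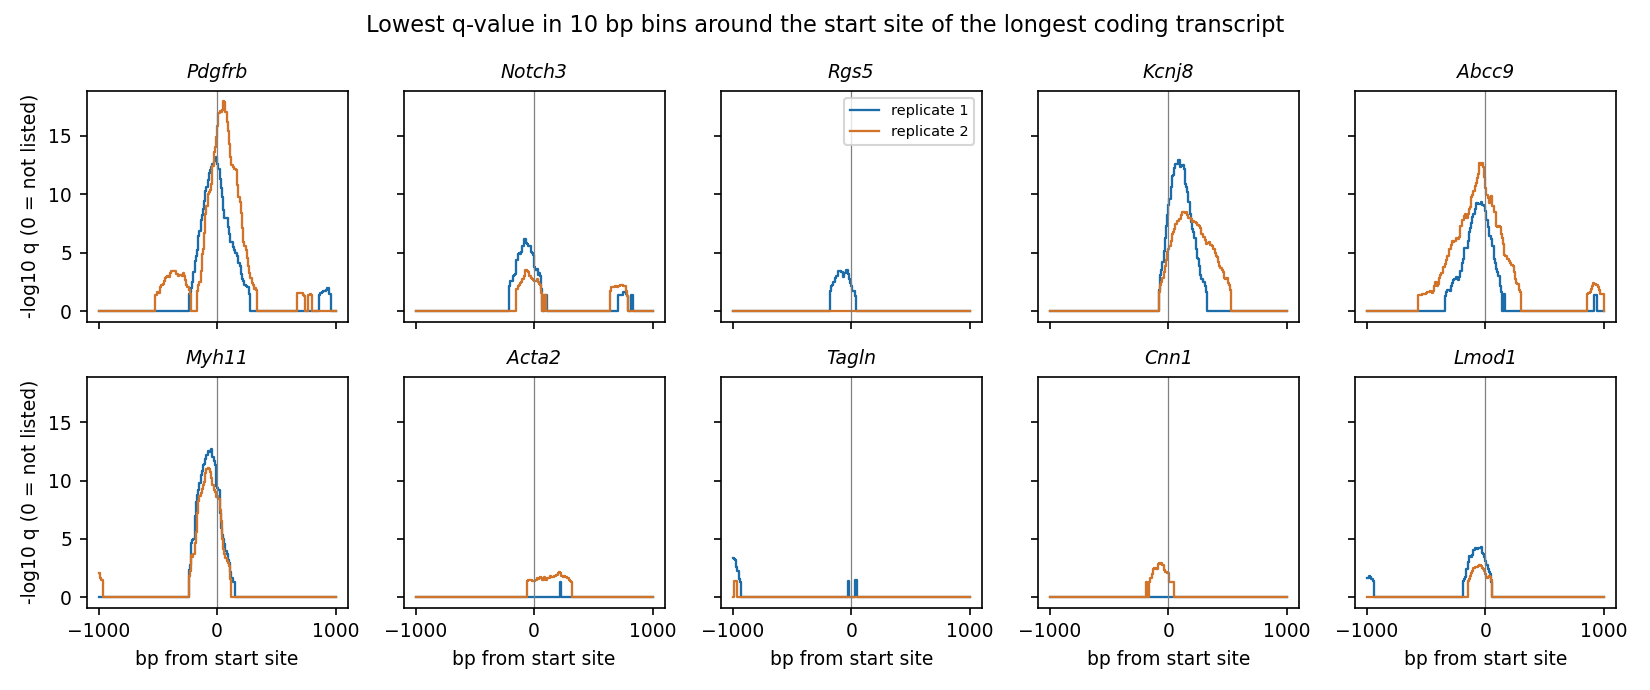
Negative log10 of the lowest deposited q in 10 bp bins (vertical axis) against distance from the GENCODE start site of the longest coding transcript (horizontal axis, bp, 1 kb either side) for each of the 10 genes; blue lines are replicate 1, orange lines replicate 2, and 0 means not listed. Pdgfrb, Kcnj8, Abcc9 and Myh11 have the tallest curves in both replicates, and within 500 bp of the start Rgs5 and Tagln have none in replicate 2.

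The q-values are deposited per base and do not depend on the peak lists. A base at q of 0.05 or lower near a coding start was listed in both libraries for 7 of the 10 genes, against 59.9% of all genes. The 7 were Pdgfrb, Notch3, Kcnj8, Abcc9, Myh11, Acta2 and Lmod1. At q of 0.001 or lower there were 5, against 54.9%, since Acta2 and Lmod1 no longer counted. Both counts were again near the background. Across the 10 windows, the median share of bases with a listed q was 1.67% in replicate 1 and 2.20% in replicate 2, and over all genes it was 1.71% and 2.14%.

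Away from their own promoters, 7 of the 10 genes had a region in both libraries, against 49.4% of all genes. Kcnj8, Rgs5 and Tagln had none. The windows of these genes were longer, with a median of 60112.5 bp against 37380 bp over all genes, so a higher count was also open to them by length, and the part this played was not tested. The 10 windows together held 32 merged regions, of which 21 were in both libraries, 7 in replicate 1 alone and 4 in replicate 2 alone. Over the whole genome, 32662 of 63849 merged regions were in both libraries. Of the 21, 4 were at a gene's own promoter, 3 at the promoter of another gene and 14 elsewhere. Their median percentile was 65.1 in replicate 1 and 66.6 in replicate 2, beside 64.9 and 65.0 over all regions in both libraries. The genes thus had regions of middling rank, and the tallest among them lay away from the contractile promoters.

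**Figure D3:**
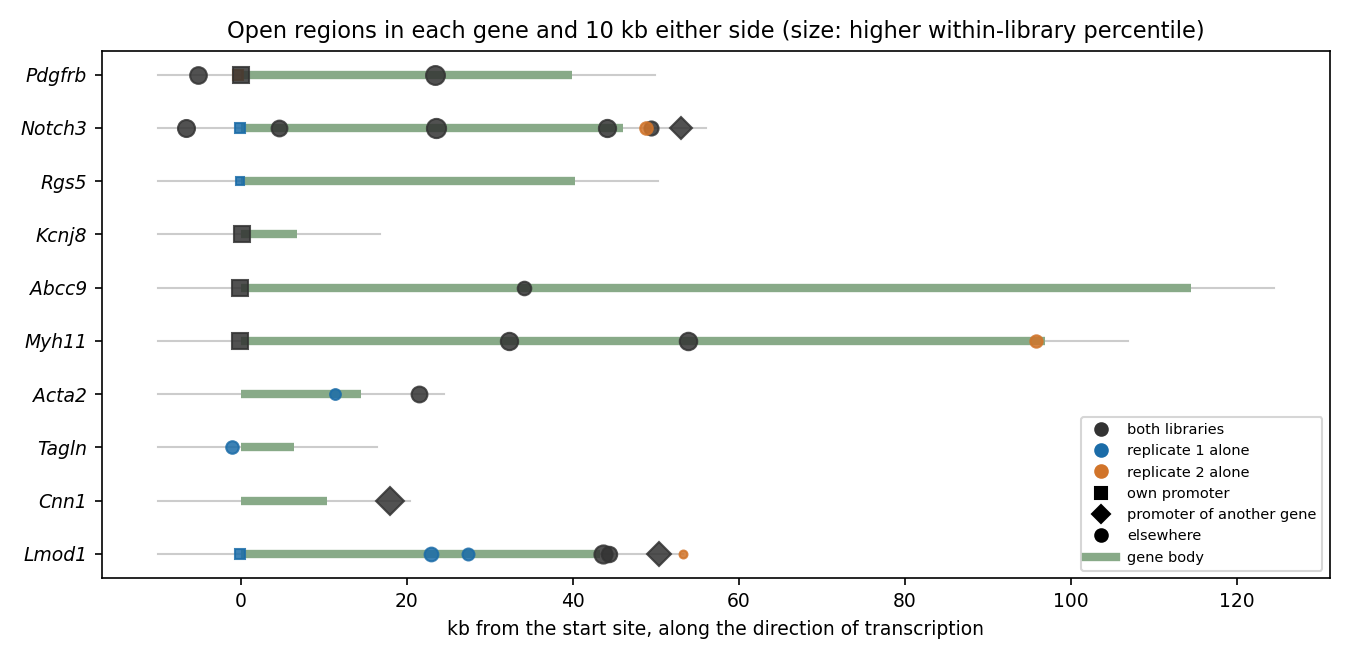
Regions of the shorter lists in the window of each of the 10 genes (rows), by distance from the start site in the direction of transcription (horizontal axis, kb); colour gives the library, shape the place, size the higher percentile, and green bars are gene bodies. Of the 20 regions in both libraries drawn, 4 are squares at the gene's own start, and Rgs5 and Tagln have only a region of replicate 1.

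Footprints, the short protected stretches deposited as positions only, numbered 80 in the windows in replicate 1 and 118 in replicate 2. Of the 80 replicate 1 footprints, 47 overlapped one of replicate 2 by at least 1 bp, against 80997 of 155037 over the whole genome. At least 1 such shared footprint was in the window of 8 of the 10 genes, against 70.6% of all genes. Notch3 had the most, 14, followed by Lmod1 with 8 and Myh11 with 7. Rgs5 had 2 footprints in replicate 1 and none in replicate 2, as had Tagln, so neither had a shared one.

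The CArG box, the element bound by SRF, was searched on both strands, as an exact match, because the contractile genes are known SRF targets. The 10 windows held 41 boxes, and every one of the 10 genes had at least 1. None lay in a peak of the shorter lists or in a footprint of either library. Over all regions in both libraries, 0.817% held a box within their central 200 bp, so a count of 0 among 21 regions is near the background. Of the 41 boxes, 1 had a listed q in replicate 1 and 0 in replicate 2, while 1.69% and 2.29% of the bases of these windows had one. That box lay in intron 1 of Acta2 (chr19:34254288-34254297), 1298 bp from the GENCODE coding start, at q of 0.0216, inside a longer-list peak of 0.678 in replicate 1. That peak was within 500 bp of a further annotated Acta2 start, outside the coding starts used here. The peak is shown on the minus strand of GRCm38, with the box in capitals. Distances to a start were measured from the longest coding transcript of each gene. Tagln had the only 2 boxes within 500 bp of such a start, 107 bp before it and 16 bp after it. Neither had a listed q.

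Acta2 intron 1 peak: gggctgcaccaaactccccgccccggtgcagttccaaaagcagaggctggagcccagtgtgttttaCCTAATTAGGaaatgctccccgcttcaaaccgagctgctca

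RefSeq (GRCm38.p6) gave a promoter, from 250 bases before to 50 after the start, for 7 of the 10 genes, all but Pdgfrb, Myh11 and Tagln. Exact matches in these windows were counted on both strands, as a description of letters and not of binding. Notch3 held 4 matches to GGGCGG, the SP/KLF box, and Abcc9 and Lmod1 held 1 each, against 35.7% of all RefSeq promoters with at least 1. GGAATG, the TEAD element MCAT, was in Abcc9, Acta2 and Lmod1 and in 14.7% of all. In the Abcc9 promoter that match overlapped TGGGAA, the RBPJ core.

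In the 21 regions in both libraries, read over their central 200 bp, the other motifs were also near their shares over all such regions. CANNTG, the E-box, was in 61.9% against 60.5%. TGGGAA was in 19.0% against 18.5%, and GGGCGG in 33.3% against 34.8%. TGANTCA, the AP-1 element, was in 2 regions (9.52% against 6.60%) and GGAATG in 1 (4.76% against 9.72%). TGTTTAC (FOX), GTCTAGAC (SMAD), the NFI palindrome and the MEF2 site were in none, and at most 1.95% of all regions held any one of these.

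One further motif, the 12-base core of the CTCF site, was added after the footprint sequences of these genes had been seen, so its count here is a description only. CTCF is the zinc-finger protein known for anchoring chromatin loops in most cell types. Within the central 200 bp, the core was in 7 of the 21 regions (33.3%), against 20.2% of all regions in both libraries. The regions were the upstream and intron 9 regions of Pdgfrb, intron 2 of Notch3, intron 9 and the promoter of Myh11, and both downstream regions of Lmod1. Of the shared footprints of any width, 6 of 47 (12.8%) touched a core, against 8.64% of all shared footprints. Of those at least 20 bp wide it was 5 of 12, against 16.8% of all such footprints. The matches outside the promoters at Notch3, Myh11 and Lmod1 that lay in a footprint are shown with 9 bases either side, with the core in capitals, of which the opening CC, the AG and the closing GGC were fixed in the search (GRCm38; Notch3 chr17:32162223-32162234, plus strand; Myh11 chr16:14237502-14237513, plus strand; Lmod1 chr1:135368393-135368404, minus strand).

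Notch3 intron 2: gatgacacgCCAGGAGGGGGCgctgcgtgc
Myh11 intron 9: catcactcaCCAGTAGATGGCagcagtgcc
Lmod1 downstream: tgcagttttCCTCGAGGTGGCgctgcgctc

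Of the 21 regions, 4 ranked more than 15 percentile points higher in replicate 2 than in replicate 1: Myh11 intron 9 (38.9), the Pdgfrb upstream region (24.1), Pdgfrb intron 9 (15.5) and the Abcc9 promoter, which went from the 48.6th to the 66.6th percentile. All but the Abcc9 promoter held the core. These 4 were singled out for that difference. Over all regions in both libraries, 23.8% of those with a core and 13.8% of those without ranked more than 15 points higher in replicate 2. A count of 4 among 21 is thus near the background. Of the other regions with a core, the first downstream region of Lmod1 differed by 3.80 points, and Notch3 intron 2 (-1.08), the Myh11 promoter (-1.80) and the second downstream region of Lmod1 (-6.60) ranked lower in replicate 2. Regions without a core in their central 200 bp also ranked higher in replicate 2, such as Notch3 exon 24 (9.82) and the Shisa4 start (8.30). The Shisa4 start held a core outside its central 200 bp. Over all regions in both libraries, the median difference was 4.96 points for the 6609 with a core and -0.33 for the 26053 without. Among the 21 regions, the median difference was 3.80 points for the 7 with a core and -4.09 for the 14 without.

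The wider mural cell programme was read from 45 other genes in 5 lists. A promoter peak was in both libraries for 33 of them (73.3%), against 54.2% of all genes, and many of the 33 are also used by other cell types of muscle. In the longer lists the count was 40 of 45, against 59.0% of all genes. For contractile smooth muscle genes the count was 9 of 12. Vcl (vinculin) had promoter values of 17.9 and 8.22, Smtn (smoothelin) 7.20 and 4.73, and Des (desmin, which skeletal fibres also use) 6.21 and 3.11. Actg2 (enteric smooth muscle actin) and Kcnmb1 (a subunit of the BK potassium channel) had no promoter peak. For pericyte genes the count was 8 of 12, and the values were low, as in the 10 genes. Cspg4 (the NG2 proteoglycan) had 2.97 and 1.54, and Mcam (CD146) had 1.94 and 1.83. Vtn (vitronectin) had 2.22 and 1.33, tied in lower percentile with Art3, at 2.01 and 1.33. Cox4i2 and Higd1b had none in the shorter lists, and each had a promoter peak in the longer list of replicate 1 alone.

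For SRF and its cofactors the count was 3 of 4. Mrtfa had promoter values of 17.0 and 8.04, Srf 9.69 and 4.46, and Mrtfb 4.59 and 4.78. Myocd, the cofactor largely restricted to cardiac and smooth muscle, had none in the shorter lists but had a promoter peak in both longer lists. For PDGF and Notch partners it was 9 of 10, led by Rbpj, the DNA-binding partner of Notch, with 13.8 and 7.16, then Hey2, a Notch target, with 10.1 and 6.80, and the ligand Jag1 with 7.51 and 5.22. For mural transcription factors it was 4 of 7, with Ebf1 at 7.06 and 4.05, Foxc1 at 3.86 and 2.81 and Tbx2 at 3.22 and 2.12. Foxs1 had none in the shorter lists but had a promoter peak in both longer lists. Vcl, Smtn, Mrtfa, Srf, Rbpj, Hey2, Jag1 and Ebf1 each lay above the medians of all genes in both libraries. So did Hes1 (8.35 and 4.85) and Hey1 (8.24 and 4.84). The 10 genes and the 12 pericyte genes lay below these medians or had no peak.

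**Figure D4:**
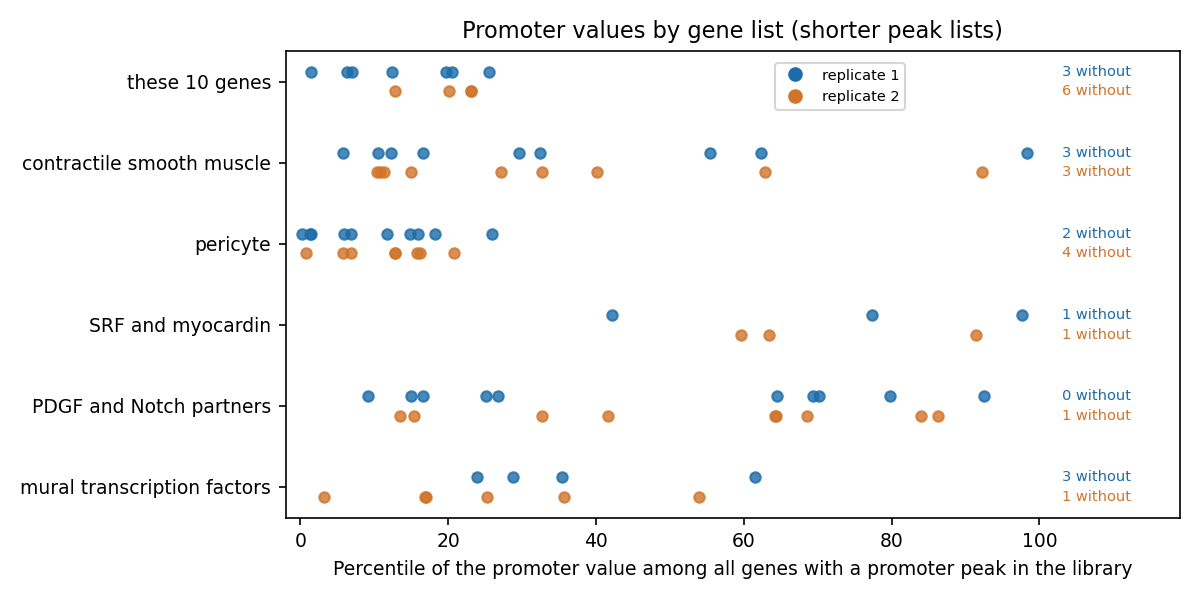
Promoter value of each gene as a percentile among all genes with a promoter peak in that library (horizontal axis), 1 point a gene, for the 10 genes and the 5 lists of other mural cell genes (rows), with replicate 1 in blue and replicate 2 in orange and the number of genes without a promoter peak at the right. The 10 genes reach at most 25.5 in replicate 1 and 23.1 in replicate 2, and the other lists apart from the pericyte genes hold genes well above that.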

How the data were processed

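DNase-seq was done on nuclei of the gastrocnemius of 2 mice, per the labels. The authors called peaks for each library apart and deposited the peak height as a signal. They deposited q-values (a false discovery rate) for runs of bases at 0.05 or lower, and footprints whose score is 0.01 on every line, so that only their positions were used. All files are on mm10, per the file headers and names. The aligner, the peak and footprint callers, their versions and the treatment of CAST/EiJ alleles were not given in the sources used here. The read depth is unknown, so no counting interval is given.

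Of both peak lists of a library, the shorter was used as the main one. Promoters were taken from 41408 coding start sites of GENCODE release 21, with chrM left out. Overlapping peaks of both libraries, by at least 1 bp, were merged, and regions with a peak of each were called in both libraries. Percentiles are ranks within a list, with ties at their mean rank. Sequences were read from GRCm38.p6 with pysam 0.24.0 and samtools 1.23.1, tables with Python 3.11.15, pandas 2.3.3 and numpy 2.4.6, and figures with matplotlib 3.10.9. Merging and counting were tested on simulated data. With 1 group there is no contrast and no test between conditions. The genes and lists were chosen with earlier results of these data known. Of each list of other genes, up to 3 with the highest lower percentile and up to 2 with no promoter peak, in alphabetical order, were named. Of regions, each gene's promoter and up to 3 regions in both libraries were named by rule. All others were named after their values were seen. One region is counted but not reported here. Other peak lists, distances, thresholds, overlaps and single libraries were tried as alternatives.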

Additional observations from a re-analysis of the deposited data

How the results depend on the processing

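With replicate 2 left out, 7 of the 10 genes had a promoter peak, and with replicate 1 left out 4. Of all protein-coding genes, 54.2% had one in both libraries, 1.59% in replicate 1 alone and 2.88% in replicate 2 alone. When peaks lower than the median height of each list were dropped, 3 genes had one in both libraries. Across the alternatives the count thus ranged from 3 to 7. Shares over all genes were not counted for the median cut, nor for the gene bodies alone given next. With gene bodies alone, 4 genes had a region away from their promoter in place of 7, the regions in both libraries numbered 11 in place of 21, and shared footprints 20 in place of 47. At a reciprocal overlap of 50% the shared footprints numbered 30, and single libraries held from 80 to 118. The listed share of the 10 windows, 1.69% in replicate 1 and 2.29% in replicate 2, was 1.77% in replicate 2 at q of 0.01. At q of 0.001 it was 1.13% and 1.30%, and over gene bodies alone 1.26% and 1.47%. Of 35 alternatives to the main counts, 23 stayed and 12 moved. Staying meant within 1.5 times the main count, or for shares within 1 SD of the values of both libraries. The count of 0 CArG boxes in regions in both libraries stayed 0 with 1 mismatch allowed in the central 6 bases and with the longer lists, although 1 box of Acta2 lay in a longer-list peak of replicate 1 alone. The cause was not tested for any of the moved values beyond the smaller windows and stricter thresholds themselves. Without read counts, a missing peak at Rgs5 or Tagln shows only that none was listed. No paired analysis was possible because there is 1 group only.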
